A study of Mus musculus with 14 samples.

Results

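The genes described here are 38 mouse genes of glucose transport, glycolysis and glycogen that were named by symbol and followed in the retinal pigment epithelium (RPE) of rd1 mice with and without added Nrf2. All 38 were found among the 34452 mouse gene rows of the count table, and all 38 had enough counts to be tested, out of 16289 genes tested in all. They comprise 2 glucose carriers, 6 genes from hexokinase to phosphofructokinase, 3 genes that set the level of fructose 2,6-bisphosphate, 9 genes of the later steps of glycolysis, 2 lactate dehydrogenase genes, 7 genes of pyruvate entry into mitochondria, 2 glycerol phosphate dehydrogenase genes, Hif1a, and 6 genes of glycogen and UDP-glucose.

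RNA-Seq was performed on polyadenylated RNA of the RPE of 7 rd1 mice at P20. The paper states fewer than 7 paired replicates for its P20 rd1 comparison and does not name them. The rd1 mouse carries a null allele of Pde6b, a rod phosphodiesterase gene, and loses its rods early in life while cones die later. One eye of each mouse (Nrf2 eye) received AAV-Best1-Nrf2, which encodes human Nrf2, together with AAV-Best1-GFP, and the fellow eye (control eye) received AAV-Best1-GFP only, which gave 7 Nrf2 and 7 control libraries numbered 1 to 7 by mouse. Both vectors use the Best1 promoter, which is active in the RPE, so the controls also expressed a transgene, and the Nrf2 eye had an added vector as well as the added gene.

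RPE cells lie between the choroidal blood supply and the photoreceptors and pass glucose from the blood to the retina, much of it through the glucose carrier Glut1. Photoreceptors ferment most of the glucose they take up to lactate, and the RPE can take up that lactate and burn it in its mitochondria, so that glycolysis in the RPE competes with supply to the photoreceptors. Glucose that is not burned can be stored as glycogen or turned into UDP-glucose and UDP-glucuronic acid, the sugar donor of glucuronidation. Nrf2 is a transcription factor best known for antioxidant and detoxification genes, and it binds antioxidant response elements together with small Maf proteins.

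Total counts were between 16548349 and 50543008 per library, and no listed gene had fewer than 20 counts in any library. Levels below are CPM, counts scaled to a common library total with TMM factors. The 9 RPE markers, among them Best1, Rlbp1, Lrat and Mitf, were detected in every library and summed to 10670 to 20180 CPM in control eyes and 17130 to 27020 CPM in Nrf2 eyes. Ttr made up most of that difference, at a mean of 3235 CPM in control and 9675 CPM in Nrf2 eyes (adjusted p = 0.10, edgeR). Without Ttr the other 8 summed to 8179 to 16060 CPM in control and 8986 to 13480 CPM in Nrf2 eyes, less in the Nrf2 eye of 6 of 7 mice, and Rpe65 was the 1 marker called lower (adjusted p = 0.0199, edgeR). Vector Nrf2 transcript ranged from 0.989 to 1161 CPM in control and from 1147 to 9832 CPM in Nrf2 eyes. Libraries labelled control 3 and Nrf2 4 met at that boundary. Of the cone markers 2 of 6, Opn1sw and Gnat2, were called lower in Nrf2 eyes, and no marker of rods, inner retina, muscle, endothelium, blood, immune cells or fibroblasts was called. Rod, cone and inner retina markers were highest in controls 1 and 4. Cone markers summed to 802 and 879 CPM in those 2 libraries, to 39.2 to 390 CPM in the other controls and to 16.4 to 85.3 CPM in Nrf2 eyes. The part of these differences between libraries in the results below was not tested, except where values with and without a library are given. The RPE was sampled in bulk, so that fewer cells of a type and less RNA per cell cannot be told apart.

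In the paired quasi-likelihood test of edgeR, with Benjamini-Hochberg adjustment over all genes tested and a threshold of 0.05, 6 of the 38 genes passed (15.8%), against 3.43% of all genes tested. All 6 were higher in Nrf2 eyes, against 2.94% of all genes: Gbe1, Ugp2 and Ugdh of glycogen and UDP-glucose, Pfkfb4, Ldhb and Gapdh. No listed gene was called lower, where 0.491% of all genes were. The median log2 fold change of the 38 genes was 0.12, beside -0.04 over all genes, with 23 above 0 and 15 below. At an unadjusted p under 0.05 there were 18 listed genes, 14 higher and 4 lower, where 18.1% of all genes had such a p. Adjusted p was between 0.05 and 0.1 for 5 more: Hk2, Gpi1, Pdk3, Gpd1 and Mpc1.

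**Figure D1:**
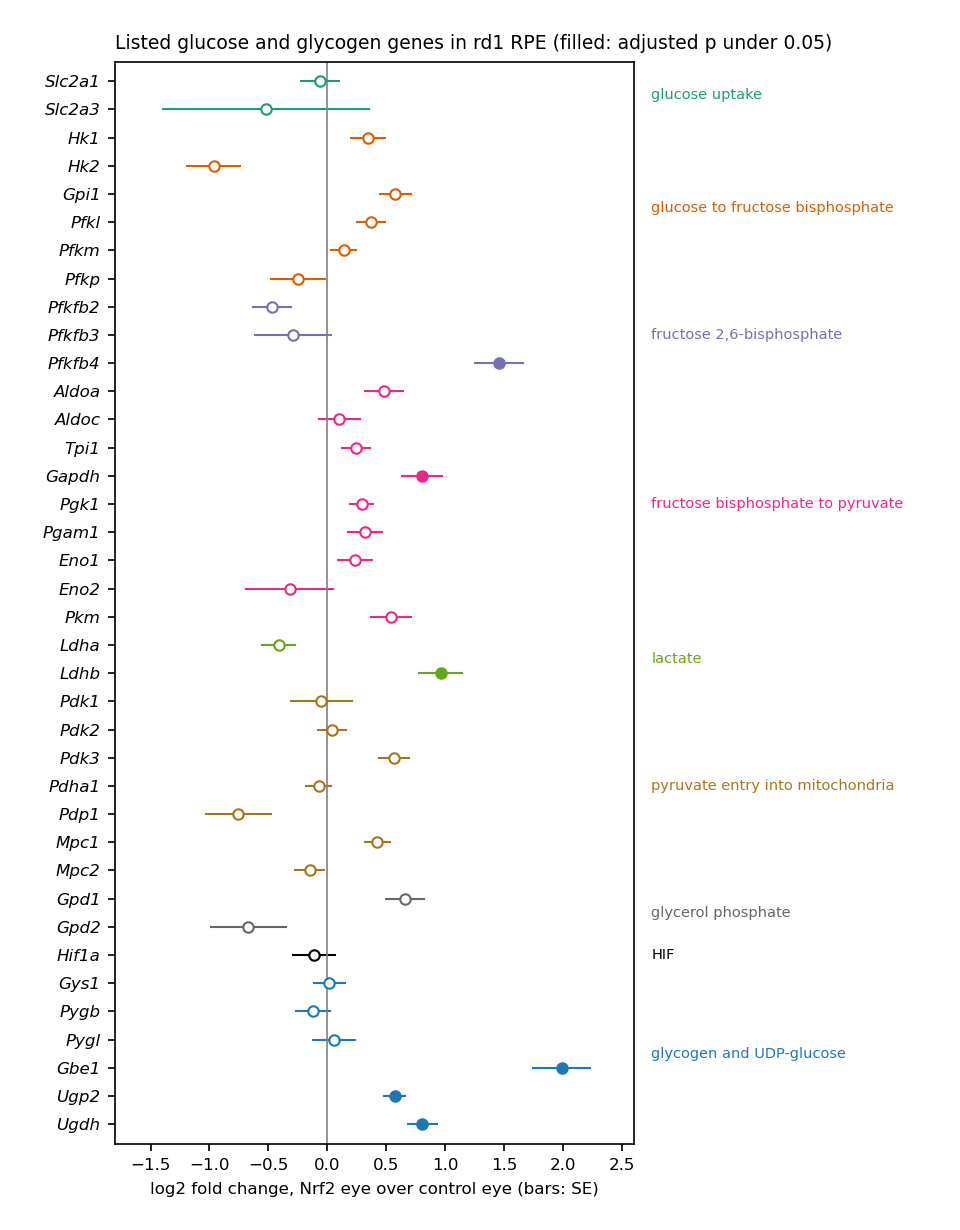
Log2 fold change of the 38 listed genes (horizontal axis, Nrf2 over control eye, bars are SE, 7 mice), ordered and coloured by role. The 6 filled points passed an adjusted p of 0.05 in edgeR and all lie to the right of 0, from Ugp2 at 0.57 to Gbe1 at 1.99.

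Mouse 4, whose Nrf2 eye had the least vector transcript, differed from the other mice in much of this list. Nrf2 4 also had skeletal muscle markers summing to 225.5 CPM, against 18.01 to 93.9 CPM in the other Nrf2 eyes and 37.6 CPM in control 4. In control 3 they summed to 229.1 CPM. Rpe65 in Nrf2 4 was at 1048 CPM, against 137 to 356 CPM in the other Nrf2 eyes and 973.5 CPM in control 3. Several listed genes were also close in Nrf2 4 and control 3: Hk1 at 152.8 and 155.2 CPM, Aldoa at 1692 and 1736 CPM, Ldhb at 611.1 and 621.1 CPM. This closeness was not particular to control 3. Control 7 was nearer still to Nrf2 4 for Aldoa and Ldhb, at 1726 and 602.6 CPM, and had Hk1 at 162.2 CPM. Gbe1 was further apart in Nrf2 4 and control 3, at 65.3 and 52.2 CPM. The labels were kept as given, and whether these libraries are rightly labelled was not tested. The part of any of these in the differences of mouse 4 was not tested. In mouse 4 the median difference of the 38 genes was -0.06 on the log2 scale, 17 were higher and 21 lower in the Nrf2 eye. The other mice had median differences from 0.04 in mouse 1 to 0.69 in mouse 6. Nrf2 4 was the lowest of the Nrf2 libraries for 15 of the 38 genes, and control 6 was the lowest control for 23. Without mouse 4 the same test called 18 of the 38 genes (47.4%), 15 higher and 3 lower, but it then also called 12.2% of all genes, 5.99% higher and 6.25% lower. Each other mouse was needed for some of the 6 calls. Without mouse 1, 3 or 5 the test called Gbe1 and Pfkfb4, without mouse 6 these and Ugp2, and without mouse 7 Gbe1 alone. Calls over all genes fell as well, from 559 to 143, 164 and 155 without mice 1, 3 and 5, and to 240 and 111 without mice 6 and 7. Without mouse 2 it called 387 genes in all and 5 of the 38, Ugp2, Gbe1, Pfkfb4, Ugdh and, not among the 6, Pdk3.

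**Figure D2:**
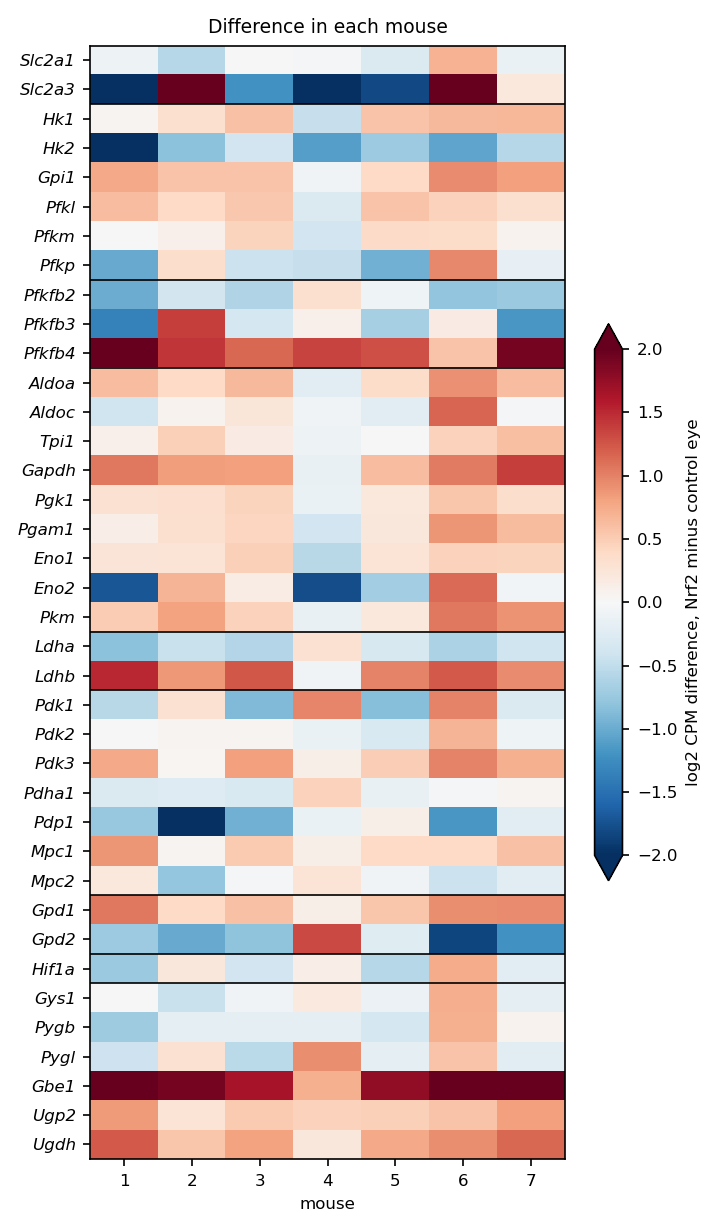
Difference in log2 CPM between the Nrf2 and the control eye of each mouse (columns) for each listed gene (rows, grouped by role). Gbe1, Ugp2, Ugdh and Pfkfb4 are red in all 7 columns, while Gapdh, Ldhb, Pkm and Aldoa are red in 6 and slightly blue in mouse 4.

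The largest log2 fold change of the 38 genes was that of Gbe1, which encodes glycogen branching enzyme, the maker of the branch points of the polymer (ENSMUSG00000022707, chromosome 16, 70313949 to 70569716, GRCm38). Controls 1 to 7 held 45.2, 39.0, 52.2, 40.0, 37.5, 24.1 and 31.2 CPM of it, and Nrf2 libraries 1 to 7 held 228, 148, 163, 65.3, 128, 146 and 233 CPM. Every Nrf2 library lay above every control, with Nrf2 4 the nearest to the controls. Such a gap between the groups was found for 2 listed genes, Gbe1 and Ugp2, and for 1.22% of all genes tested. The log2 fold change of Gbe1 was 1.99 (edgeR, SE 0.25, adjusted p = 0.00936), or 3.97-fold. All 7 mice had more in the Nrf2 eye, by 0.71 to 2.90, and exact sign-flip permutation of the mice gave the smallest p possible with 7 pairs, 0.0156. Gbe1 was called in all 17 other analyses run, those without mouse 4 and without mice 1 and 4 among them.

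Ugp2 encodes UDP-glucose pyrophosphorylase, which makes UDP-glucose from glucose 1-phosphate (ENSMUSG00000001891, chromosome 11, 21321138 to 21371201). Its level was 54.6 to 67.6 CPM in control eyes (median 63.2) and 75.4 to 110.5 CPM in Nrf2 eyes (median 95). The groups did not overlap, and the controls stayed within a narrow band. The log2 fold change was 0.57 (edgeR, SE 0.10, adjusted p = 0.0185), higher in 7 of 7 mice. Ugdh encodes UDP-glucose dehydrogenase, which oxidizes UDP-glucose to UDP-glucuronic acid (ENSMUSG00000029201, chromosome 5, 65413221 to 65435949). It ranged from 80.3 to 113.8 CPM in control (median 89.5) and from 104.8 to 199 CPM in Nrf2 eyes (median 154). The only overlap was between control 3 and Nrf2 4. Its log2 fold change was 0.81 (edgeR, SE 0.13, adjusted p = 0.0171), and all 7 mice had more in the Nrf2 eye, by 0.23 to 1.22.

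Gys1, for the glycogen synthase that extends the chains, was at 18.5 to 34.6 CPM in control (median 30.4) and 25.4 to 32.0 CPM in Nrf2 eyes (median 29.6). Its Nrf2 libraries lay inside the range of the controls, with a log2 fold change of 0.02 (edgeR, SE 0.14, adjusted p = 0.97). Glycogen phosphorylase, which releases glucose 1-phosphate from glycogen, was represented by Pygb and Pygl, with log2 fold changes of -0.12 (SE 0.15) and 0.06 (SE 0.19) and adjusted p of 0.72 and 0.91. Thus 3 of 6 genes of this group rose, and synthase and phosphorylase were not among them.

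The promoters of the glycogen and UDP-glucose genes that rose, and of Pfkfb4 and Ldhb, were examined for the antioxidant response element core TGACNNNGC (N, any base) on either strand, since Nrf2 binds that element. RefSeq promoter windows, 250 bases before to 50 bases from the start (GRCm38.p6), were found for 35 of the 38 genes. Sequence outside these windows was not searched, and binding of Nrf2 was not measured. The core occurred in windows of Aldoa, Hk1, Mpc1 and Ugdh, 4 of 54 windows (7.41%), beside 12.4% of all promoter windows. Of the 6 genes that rose Ugdh alone had it. Its window had 2 matches, 132 bases before the start on the same strand and 94 bases before it on the opposite strand. The window of Gbe1, the gene with the largest rise, had none. Each is shown 5′ to 3′ on the strand of the gene, with the cores in capitals, to set the promoter with matches beside the one without.
Ugdh, chr5:65435793-65436092, minus strand: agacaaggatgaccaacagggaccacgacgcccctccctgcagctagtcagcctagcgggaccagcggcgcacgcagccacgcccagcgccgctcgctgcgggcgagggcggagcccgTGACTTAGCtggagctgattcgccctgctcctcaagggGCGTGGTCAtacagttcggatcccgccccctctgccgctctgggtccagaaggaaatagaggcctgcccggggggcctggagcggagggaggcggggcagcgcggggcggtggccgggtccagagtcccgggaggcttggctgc
Gbe1, chr16:70313699-70313998, plus strand: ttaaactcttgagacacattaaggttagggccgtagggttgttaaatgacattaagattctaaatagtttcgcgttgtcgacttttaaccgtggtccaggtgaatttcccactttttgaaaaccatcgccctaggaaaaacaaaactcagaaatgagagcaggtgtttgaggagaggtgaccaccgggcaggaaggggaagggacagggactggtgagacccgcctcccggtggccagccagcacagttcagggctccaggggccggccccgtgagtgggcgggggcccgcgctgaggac

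Hypoxia response elements, which HIF binds and which are known from many glycolytic promoters, were searched by their cores ACGTG and GCGTG on either strand. ACGTG occurred in 44.4% of the listed windows and in 19.6% of all windows, GCGTG in 53.7% and in 32.4%. These shares describe the letters of the windows only. The second Ugdh match above, GCGTGGTCA, overlaps a GCGTG. The windows of Pfkfb4 and Ldhb, which also rose, each had 1 core, GCGTG, 117 and 126 bases before the start, and no antioxidant response element core. They are shown with the GCGTG in capitals.
Pfkfb4, chr9:108991652-108991951, plus strand: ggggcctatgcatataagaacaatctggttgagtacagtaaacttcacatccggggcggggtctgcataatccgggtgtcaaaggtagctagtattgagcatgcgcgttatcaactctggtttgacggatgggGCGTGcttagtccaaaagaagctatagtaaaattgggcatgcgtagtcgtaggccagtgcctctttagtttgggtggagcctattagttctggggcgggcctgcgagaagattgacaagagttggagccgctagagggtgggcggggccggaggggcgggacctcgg
Ldhb, chr6:142507908-142508207, minus strand: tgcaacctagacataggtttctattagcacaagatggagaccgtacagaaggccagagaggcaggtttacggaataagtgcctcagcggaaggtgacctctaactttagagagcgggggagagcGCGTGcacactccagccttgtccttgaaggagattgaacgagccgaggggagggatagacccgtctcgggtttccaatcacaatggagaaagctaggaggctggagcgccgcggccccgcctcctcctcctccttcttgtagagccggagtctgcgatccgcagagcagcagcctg

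Other genes of glycogen and UDP-sugar metabolism were taken from a list of 28, of which 27 were tested. This list was drawn up with earlier results of these data known. Of the 27, 4 rose (14.8%) and none fell: Phka1, Phkb, Pgm1 and Gaa. Over all genes tested 2.94% were called higher and 0.491% lower. The median log2 fold change of the 27 was 0.12. Phka1 and Phkb encode the alpha and beta regulatory subunits of phosphorylase kinase, which activates glycogen phosphorylase. Phka1 was at 9.24 to 24.4 CPM in control libraries (median 17.9) and at 28.3 to 112 CPM in Nrf2 libraries (median 69.2). The groups did not overlap, as for 1.22% of all genes tested. Its log2 fold change was 1.99 (edgeR, SE 0.29, adjusted p = 0.0131). Phkb, with a log2 fold change of 1.00 (edgeR, SE 0.13, adjusted p = 0.0101), was called in all 17 other analyses. Pgm1, named for phosphoglucomutase, had a log2 fold change of 1.00 (edgeR, SE 0.17, adjusted p = 0.0197), again without overlap, from a control median of 75.5 CPM to an Nrf2 median of 139 CPM. Gaa, the lysosomal enzyme that breaks glycogen down, had a log2 fold change of 0.90 (edgeR, SE 0.18, adjusted p = 0.0348). Each of the 4 was higher in all 7 mice. Genes of both synthesis and breakdown of glycogen thus stood among those that rose.

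**Figure D3:**
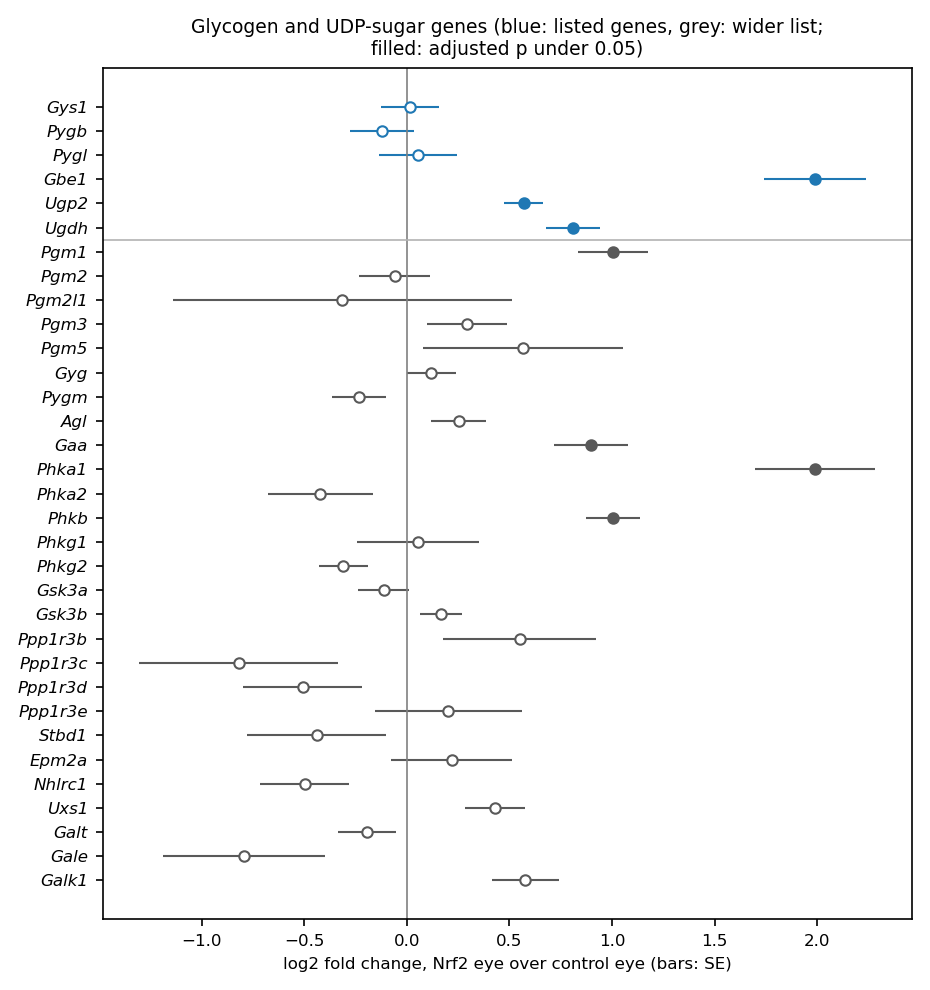
Log2 fold change (Nrf2 over control eye, bars are SE, 7 mice) of the 6 listed glycogen and UDP-glucose genes (blue, top) and of 27 further genes of the same pathways (grey). Filled points passed an adjusted p of 0.05 in edgeR: Gbe1, Ugp2 and Ugdh, and below them Pgm1, Gaa, Phka1 and Phkb, all to the right of 0.

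Glucose carriers did not pass the test. Slc2a1 encodes Glut1, the carrier through which glucose crosses the RPE. At 371 CPM per kb of transcript in control eyes it was among the 6 most abundant of the 38 genes. That ranking leaves out near-identical copies, which held 69.6% of the summed level of Gapdh. Slc2a1 ranged from 768 to 1467 CPM in control (median 1222) and from 883 to 1339 CPM in Nrf2 eyes (median 1186). All Nrf2 libraries lay within the range of the controls, and the log2 fold change was -0.06 (edgeR, SE 0.17, adjusted p = 0.88). Slc2a3, for the neuronal carrier Glut3, was scarce, 0.88 to 24.2 CPM in control and 2.69 to 27.2 CPM in Nrf2 eyes. Its highest controls were 1 and 4, the libraries with the most photoreceptor and inner retina markers, and its log2 fold change turned from -0.52 (SE 0.88) to 0.51 (SE 0.90) without mice 1 and 4. Of 10 other glucose and hexose carriers tested, none passed.

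Hexokinases trap glucose as glucose 6-phosphate. Hk1 made up 95.1% ± 1.67 (SD, n = 7) of length-corrected Hk1 and Hk2 counts in control eyes and 98.0% ± 0.56 (SD, n = 7) in Nrf2 eyes, a difference with the same sign in 7 of 7 mice. Hk1 ranged from 124 to 247 CPM in control (median 162) and from 153 to 258 CPM in Nrf2 eyes (median 203), with a log2 fold change of 0.34 (edgeR, SE 0.15, adjusted p = 0.28). Control 1 lay above 5 of the 7 Nrf2 libraries, and in mouse 4 Hk1 was lower in the Nrf2 eye.

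Hk2 ranged from 3.74 to 19.5 CPM in control (median 9.65) and from 2.87 to 5.43 CPM in Nrf2 eyes (median 4.72). It was lower in the Nrf2 eye of 7 of 7 mice, by 0.38 to 2.05 (log2), and exact sign-flip permutation gave p = 0.0156, but its adjusted p was 0.0648 in edgeR (log2 fold change -0.96, SE 0.23). A lower value in the Nrf2 eye of all 7 mice was found for 2.93% of all genes. Control 3 lay below the Nrf2 eyes of other mice and control 1 far above the other controls. Controls 1 and 4 had rod markers summing to 406 and 305 CPM, and without mice 1 and 4 the log2 fold change of Hk2 was -0.70 (SE 0.23). Its adjusted p ranged from 0.00158 to 0.164 over the 17 other analyses.

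Gpi1, for glucose 6-phosphate isomerase, had a log2 fold change of 0.58 (edgeR, SE 0.14, adjusted p = 0.0648), higher in 6 of 7 mice, by up to 0.95, and at -0.06 in mouse 4. Of the phosphofructokinase genes, which carry out the committed step, Pfkl, Pfkm and Pfkp had log2 fold changes of 0.37, 0.14 and -0.25 (adjusted p 0.17, 0.55 and 0.61, edgeR). Without mouse 4, where 12.2% of all genes were called, Hk1, Gpi1 and Pfkl were past the threshold, at 0.47, 0.68 and 0.48. None of them passed with any other single mouse left out.

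The bifunctional enzymes encoded by Pfkfb2, Pfkfb3 and Pfkfb4 make and degrade fructose 2,6-bisphosphate, the activator of phosphofructokinase. Pfkfb4 (ENSMUSG00000025648, chromosome 9, 108991778 to 109032228), whose promoter is shown above, was at 10.9, 10.9, 18.6, 7.19, 14.8, 20.6 and 15.5 CPM in controls 1 to 7 and at 60.7, 29.3, 41.4, 18.5, 36.2, 30.6 and 58.2 CPM in Nrf2 libraries 1 to 7. Nrf2 4 alone fell within the range of the controls, and it still lay above its own control. The log2 fold change was 1.46 (edgeR, SE 0.21, adjusted p = 0.0129), higher in 7 of 7 mice. Pfkfb2 was lower in the Nrf2 eye of 6 of 7 mice, with medians of 25.7 CPM in control and 16.2 CPM in Nrf2 eyes, with a log2 fold change of -0.47 (edgeR, SE 0.17, adjusted p = 0.20). It was called lower without mouse 4 (-0.60), as were 6.25% of all genes. Pfkfb3 had a log2 fold change of -0.29 (edgeR, SE 0.33, adjusted p = 0.68). Of the length-corrected counts of the 3 genes, Pfkfb4 held 20.1% ± 4.62 (SD, n = 7) in control and 46.5% ± 17.1 (SD, n = 7) in Nrf2 eyes, and its share was higher in 7 of 7 mice.

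The later steps of glycolysis, from fructose bisphosphate to pyruvate, include the most abundant genes of the list. Per kb of transcript, with near-identical copies left out, Aldoa (1069 CPM per kb in control eyes), for aldolase A, and Pkm (572), for pyruvate kinase, led. Eno1 (426) and Gapdh (235) ranked lower, but such copies held 52.4% and 69.6% of their summed levels. The order with copies counted was not examined. Of the 9 genes, 8 had a log2 fold change above 0 and 1, Gapdh, passed. Gapdh encodes the dehydrogenase that yields NADH (ENSMUSG00000057666, chromosome 6, 125161715 to 125166467). It ranged from 240.0 to 347 CPM in control (median 284) and from 313 to 739.8 CPM in Nrf2 eyes (median 491). Nrf2 4 was the only Nrf2 eye within the range of the controls and was below its own control. The log2 fold change was 0.80 (edgeR, SE 0.18, adjusted p = 0.0482). Gapdh has 99 near-identical copies in the table, and these held 69.6% of the summed level of gene and copies. The most abundant was the processed pseudogene Gm13394, at 784 CPM. With the copies added to Gapdh the log2 fold change was 0.78 and the adjusted p 0.0588, so that the call was lost, as it was with RLE or upper-quartile normalization. The adjusted p ranged from 0.000971 to 0.161 over the 17 other analyses.

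Pkm ranged from 907 to 1464 CPM in control (median 1388) and from 1320 to 2402 CPM in Nrf2 eyes (median 1878). Nrf2 4 was again the only Nrf2 library within the controls. The log2 fold change was 0.54 (edgeR, SE 0.18, adjusted p = 0.16). Aldoa (0.48), Pgam1 (0.32), Pgk1 (0.29), Tpi1 (0.25) and Eno1 (0.24) were each higher in the Nrf2 eye of 6 of 7 mice, all but mouse 4, with adjusted p from 0.18 to 0.46. Without mouse 4, where 12.2% of all genes passed, Aldoa, Pkm and Pgk1 passed as well as Gapdh. Eno1, for alpha-enolase, shares its sequence with Eno1b, and its copies held 52.4% of the summed level. Aldoc was at 0.10 (adjusted p 0.81). Eno2, the neuronal enolase, was at 212 and 226 CPM in controls 1 and 4, at 28.8 to 77.0 CPM in the other controls and at 44.0 to 119 CPM in Nrf2 eyes. Its log2 fold change was -0.32 (edgeR, SE 0.38, adjusted p = 0.69) with all mice and 0.26 (SE 0.26) without mice 1 and 4.

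**Figure D4:**
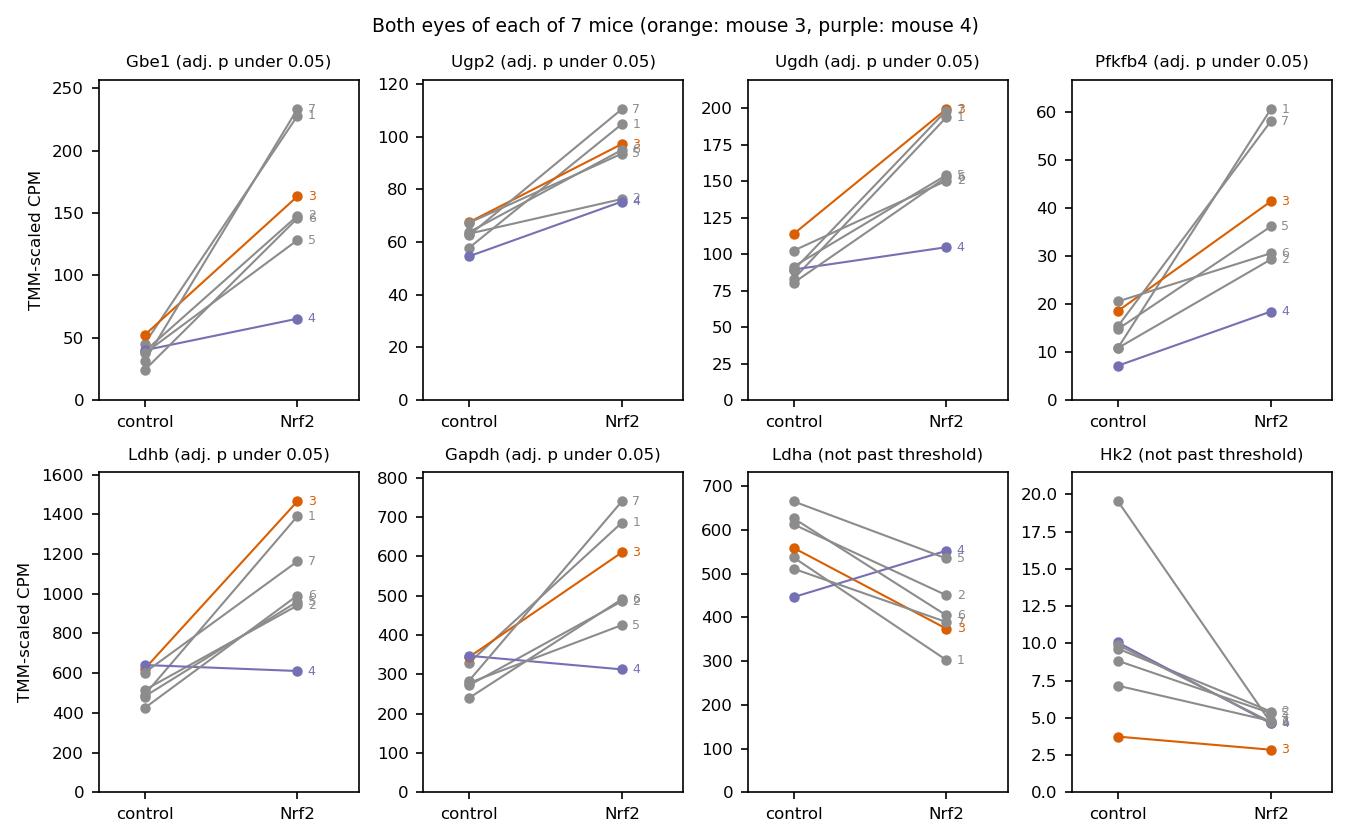
TMM-scaled CPM in the control and the Nrf2 eye of each mouse (lines join both eyes, numbers are mice) for the 6 listed genes that passed and for Ldha and Hk2, which did not. Mouse 4 (purple) has the lowest Nrf2 eye in the 6 genes that passed and is the only line that falls for Ldhb and Gapdh or rises for Ldha.

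Lactate dehydrogenase interconverts pyruvate and lactate as tetramers of Ldha and Ldhb subunits. Ldhb, the subunit that prevails in tissues which oxidize lactate (ENSMUSG00000030246, chromosome 6, 142490249 to 142507957), was at 491, 515, 621, 641, 483, 424 and 603 CPM in controls 1 to 7 and at 1390, 941, 1465, 611, 961, 991 and 1163 CPM in Nrf2 libraries 1 to 7. Except for Nrf2 4, each Nrf2 library was above every control. The log2 fold change was 0.96 (edgeR, SE 0.19, adjusted p = 0.0336), with more in the Nrf2 eye of 6 of 7 mice and a difference of -0.07 in mouse 4. A pseudogene copy, Gm5514, held 5.88% of the summed level, and the call held with it added. Ldha ranged from 446 to 665 CPM in control (median 559) and from 303 to 552 CPM in Nrf2 eyes (median 405). The ranges overlapped, Ldha was lower in 6 of 7 mice, and mouse 4 differed by 0.31 in the other direction. Its log2 fold change was -0.41 (edgeR, SE 0.15, adjusted p = 0.18). Without mouse 4, where 6.25% of all genes were called lower, it passed at -0.53.

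Per length, Ldhb made up 53.6% ± 6.70 (SD, n = 7) of the counts of both genes in control and 74.1% ± 9.33 (SD, n = 7) in Nrf2 eyes, a mean difference of 20.4 ± 12.6 percentage points (SD of 7 paired differences). The share was higher in the Nrf2 eye of 6 of 7 mice. In Nrf2 1, with the most vector transcript, Ldhb held 84.8%, and in Nrf2 4, with the least, 57.4%. The monocarboxylate transporters that carry lactate did not pass: Slc16a8, the basolateral carrier of the RPE (log2 fold change 0.08, SE 0.38), Slc16a1 (-0.10, SE 0.31) and Slc16a3 (-0.56, SE 0.54), with adjusted p of 0.94, 0.90 and 0.62. Among 13 other pyruvate and lactate genes tested none passed.

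**Figure D5:**
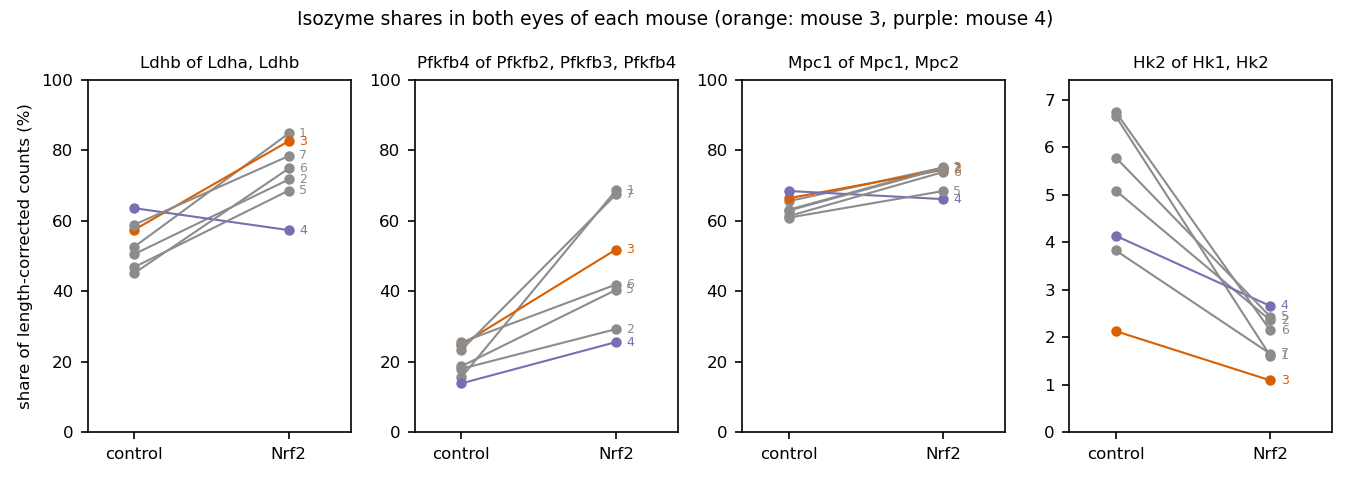
Share of length-corrected counts (percent) held by Ldhb, Pfkfb4, Mpc1 and Hk2 among their listed isozymes, in the control and the Nrf2 eye of each mouse (lines, numbers are mice; the vertical axis of Hk2 ends near 7%). The Pfkfb4 share rises and the Hk2 share falls in all 7 mice, and the Ldhb and Mpc1 shares rise in all but mouse 4 (purple).

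Pyruvate enters mitochondria through the carrier formed by Mpc1 and Mpc2 and is oxidized by pyruvate dehydrogenase, which the kinases Pdk1 to Pdk3 switch off and the phosphatase Pdp1 switches on. None of the 7 genes passed. Mpc1 and Pdk3 were each higher in 7 of 7 mice, as were 5.65% of all genes tested, with log2 fold changes of 0.42 (edgeR, SE 0.12, adjusted p = 0.095) and 0.56 (edgeR, SE 0.14, adjusted p = 0.0659). Mpc2 was at -0.15 (SE 0.13), and the share of Mpc1 in the pair was 64.1% ± 2.80 in control and 72.6% ± 3.70 in Nrf2 eyes (SD, n = 7). Pdk1, a HIF target in many cells, ranged from 31.0 to 91.7 CPM in control (median 55.7) and from 37.8 to 87.9 CPM in Nrf2 eyes (median 50.9). The Nrf2 range lay within that of the controls, at a log2 fold change of -0.05 (edgeR, SE 0.27, adjusted p = 0.95). Pdk2 made up 83.0% ± 1.76 of length-corrected kinase counts in control and 79.7% ± 2.12 in Nrf2 eyes (SD, n = 7), lower in 7 of 7 mice, but in 5 of 7 with no length correction, and its own log2 fold change was 0.04 (SE 0.13). Pdha1, for a catalytic subunit, was at -0.07 (SE 0.11) and Pdp1 at -0.75 (edgeR, SE 0.29, adjusted p = 0.21). Pdk4, outside the list, was at 0.74 (edgeR, SE 0.35, adjusted p = 0.31).

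Pyruvate can also be carboxylated. Pcx, for pyruvate carboxylase, which makes oxaloacetate from pyruvate, rose from a median of 152 CPM in control libraries to one of 357 CPM in Nrf2 libraries, with a log2 fold change of 1.00 (edgeR, SE 0.21, adjusted p = 0.0382), higher in 7 of 7 mice. It was 1 of 3 gluconeogenesis genes with enough counts to be tested. Pck1, G6pc, Fbp1 and Fbp2 were too low. The glycerol phosphate shuttle carries electrons of cytosolic NADH into mitochondria. Its cytosolic enzyme Gpd1 had a log2 fold change of 0.66 (edgeR, SE 0.17, adjusted p = 0.0807), higher in 7 of 7 mice, and its mitochondrial enzyme Gpd2 one of -0.67 (edgeR, SE 0.33, adjusted p = 0.32), lower in 6 of 7 mice, with mouse 4 at 1.33. Both passed without mouse 4, in opposite directions, where 12.2% of all genes passed.

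Hif1a encodes the oxygen-regulated subunit of hypoxia-inducible factor 1, which induces glycolytic genes. It ranged from 266 to 489 CPM in control (median 437) and from 275 to 464 CPM in Nrf2 eyes (median 352). The groups overlapped, and the log2 fold change was -0.12 (edgeR, SE 0.19, adjusted p = 0.78). Of 20 genes of the HIF pathway or known HIF targets outside glycolysis, Adm passed as higher and Ndrg1 as lower, with a median of -0.10 over the 20. Adm, for the vasodilator peptide adrenomedullin, was at 0.449 to 9.63 CPM in control (median 1.37) and at 8.25 to 95.8 CPM in Nrf2 eyes (median 41.6). Control 3 and Nrf2 4 were the only libraries that overlapped, and the log2 fold change was 4.51 (edgeR, SE 0.69, adjusted p = 0.0138). Ndrg1 was at 49.5 to 114.4 CPM in control (median 87.5) and at 35.7 to 70.2 CPM in Nrf2 eyes (median 39.5), with a log2 fold change of -0.91 (edgeR, SE 0.19, adjusted p = 0.0429), lower in 6 of 7 mice.

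Over all lists of related genes, 113 genes outside the 38 were looked up and 102 had enough counts. Of these 7 passed (6.86%), against 3.43% of all genes tested, 6 higher and 1 lower, and all 7 are described above. The lists without a call were other glucose and hexose carriers, other glycolysis genes (16 tested), other pyruvate and lactate genes, the glycerol phosphate and malate-aspartate shuttles (8 tested) and glucose sensing (5 tested).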

How the data were processed

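Polyadenylated RNA of the RPE was amplified with a low-input kit and sequenced in 2 runs, and how libraries were split between runs is not given in the sources used here. The authors deposited 1 table of estimated counts, whole numbers for each gene with no scaling between libraries. Their reads were aligned to mm10 (transcripts of Ensembl release 91) and, in parallel, counted with Salmon (version 0.9.1 in the submitters' processing notes). The row set of the table points to Salmon, whose model splits reads among near-identical copies.

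The labels placed all 14 columns, and 34401 of 34452 mouse rows matched GENCODE M21 (GRCm38). The last row, human NFE2L2 of the vector, was kept out of the calls. A second row named Aldoa, with at most 20 counts per library, was not used. Genes passing filterByExpr by group (minimum count 10) were tested in edgeR 4.0.16 (R 4.3.3) by quasi-likelihood, with TMM normalization, mouse and treatment as terms, and Benjamini-Hochberg adjustment over 16289 genes. SE were derived from the F statistic. The fit had 6 residual degrees of freedom and 2.68 from the prior. The script was tested on simulated data. Differences in single mice are of log2 CPM with a prior count of 2, and sign flips were enumerated (128 patterns, two-sided). Isozyme shares are counts divided by median transcript length and were not tested. Near-identical copies share 95% identity over at least 300 bases.

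Both eyes of a mouse are paired by the individual given in the labels. The correlation of their deviations from the group means, over 12854 genes, was 0.01, 0.05, 0.07, -0.41, 0.40, -0.24 and 0.18 in mice 1 to 7. Counts limit precision only for the scarcest genes, and the spread between mice sets the rest. The members and lists were chosen with earlier results of these data known. Values were given by rule for each listed gene past the threshold and for Slc2a1, Hk1, Hk2, Gapdh, Pkm, Ldha, Ldhb, Pdk1, Hif1a, Gys1 and Ugdh in any case, and for related genes past the threshold with Slc16a1, Slc16a3, Slc16a8 and Pdk4. The alternatives were no replicate block, RLE and upper-quartile normalization, no filter, a filter on the mean (10 counts or more), DESeq2 1.42.0, voom with quality weights (limma 3.58.1), an adjusted p of 0.01, shares with no length correction, each mouse left out, and mice 3 and 4 left out. Leaving out mice 1 and 4, and adding near-identical copies to their gene, were chosen after seeing the data.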

Additional observations from a re-analysis of the deposited data

Results flagged for a closer look

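In 8 of 78 groups of 7 libraries, 1 library lay far from the others of its group by Dixon's criterion. For independent groups of normally distributed values, chance alone meets it in about 1 group of 20. The groups here hold CPM values and share the same 14 libraries, so that this rate cannot be applied to them. Nrf2 2 was highest for 3 genes. Slc2a3 reached 27.2 CPM there, with the next Nrf2 library at 9.25 CPM, Pfkfb3 reached 29.1 CPM, with the next at 10.2 CPM, and Eno2 reached 119 CPM, with the next at 74.5 CPM. Nrf2 2 also had the highest sums of rod, cone and inner retina markers among the Nrf2 eyes (80.6, 85.3 and 812 CPM), whose part in these values was not tested. Control 6 was lowest for Slc2a1, at 768 CPM with the next control at 1201 CPM, and for Gys1, at 18.5 CPM with the next at 27.9 CPM. Hk2 was highest in control 1, at 19.5 CPM with the next at 10.1 CPM, and lowest among Nrf2 eyes in Nrf2 3, at 2.87 CPM with the next at 4.63 CPM. Vector transcript in control 3, at 1161 CPM, stood far above the next control at 168 CPM.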

How the results depend on the processing

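The alternatives are set against 559 calls over all genes and 6 among the listed genes. The fit with no replicate block, that is without pairing the eyes of a mouse, called 1100 genes, 11 of them listed, and held all 6. DESeq2 called 1943 and 14, voom with quality weights 2590 and 18, no filter 347 and 3, and an adjusted p of 0.01 left 56 and 1 (Gbe1). Without mice 1 and 4 there were 970 calls over all genes and 8 among the listed. Without mice 3 and 4 there were 745 and 7, the 6 and Gpi1. With 1 mouse left out the counts ran from 111 to 1998 over all genes and from 1 to 18 among the listed, both lowest without mouse 7 and highest without mouse 4. RLE, upper-quartile normalization, a mean of at least 10 counts and near-identical copies added each called 5 listed genes, Gapdh being lost. None of the 6 genes changed direction in any of 17 alternatives. Log2 fold changes of uncalled genes crossed 0 in 22 of 646 values. Not all were small: Slc2a3, Eno2 and Pfkfb3 crossed from -0.52, -0.32 and -0.29 with all mice in edgeR. Without the block Pfkfb3 was at 0.02 and Gys1 at -0.003. Voom gave Pdk2 -0.02, Gys1 -0.05 and Pygl -0.21. Without mice 3 and 4, Slc2a3 was at 0.19 and Gys1 at -0.004. Without mice 1 and 4, Slc2a3 was at 0.51, Eno2 at 0.26, Pygb at 0.03, Gys1 at -0.005 and Pygl at -0.003. With 1 mouse left out Slc2a1 ranged from -0.20 to 0.02, Aldoc from -0.08 to 0.19, Pdk1 from -0.24 to 0.11, Pdk2 from -0.08 to 0.10, Gys1 from -0.11 to 0.09 and Pygl from -0.09 to 0.18. With no length correction the shares themselves shifted (Pdk1 in control eyes from 7.20% to 15.2%), while the difference between Nrf2 and control eyes moved by less than 1 SD of the 7 paired differences for all 23 shares. The Pdk2 difference went from -3.27 to -2.29 percentage points. The cause of these changes was not tested.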

Other observations

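Of 5 glucose sensing genes tested, none passed with all mice in edgeR. Their log2 fold changes were below 0 (median -0.71), and 1 of them, Mlxip, had an unadjusted p under 0.05. Txnip, for the thioredoxin-interacting protein that limits glucose uptake, had a control median of 139 CPM and an Nrf2 median of 59.9 CPM (log2 fold change -0.73, edgeR, SE 0.41, adjusted p = 0.38), its relative Arrdc4 medians of 57.5 and 22.8 CPM (-0.98, SE 0.51), and Mlxip, for a glucose-responsive transcription factor, medians of 30.0 and 18.6 CPM (-0.71, SE 0.27). Each was lower in 6 of 7 mice. Without mouse 4 all 3 were called lower, at -1.09, -1.40 and -0.95, as were 6.25% of all genes. These 3 genes were chosen after their values were seen.

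The amount of vector transcript differed among the 7 Nrf2 eyes, from 1147 to 9832 CPM, and the listed genes were set against it. Pearson's r of log2 CPM with log2 vector CPM had an exact permutation p under 0.05 (5040 orders, two-sided) for 19 of 38 listed genes, 15 of them with r above 0 (39.5%), where 9.26% of all 16289 genes had such a positive r. No gene passed after adjustment over all genes (lowest adjusted p = 0.0804). For Gbe1 r was 0.97 (exact permutation p = 0.000794, adjusted over all genes 0.0804) and rho 0.93 (p = 0.00675, adjusted 0.15), and without Nrf2 4 and Nrf2 1, the libraries farthest from the median, r was 0.92. Gapdh had an r of 0.93 (exact permutation p = 0.000595, adjusted 0.0804), a rho of 0.96 (p = 0.00278, adjusted 0.15) and an r of 0.99 without those 2 libraries. Ldha had a negative r of -0.79 (exact permutation p = 0.0181, adjusted 0.19), a rho of -0.96 (p = 0.00278, adjusted 0.15) and an r of -0.80 without them. Not every relation held in this way. Pdk1, also among the 19, had an r of -0.71 (exact permutation p = 0.0484, adjusted 0.31) and of 0.06 without those 2 libraries. These relations share the 7 libraries and their depth.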
